A study of Homo sapiens with 23 samples.

Results

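The chromatin positions of supervillin (SVIL) were compared with those of the demethylase LSD1 (KDM1A) in the human neuroblastoma line SH-SY5Y on day 3 of treatment with brain-derived neurotrophic factor (BDNF). The regions compared are all 1452 peaks of the SVIL list and all 20748 peaks of the LSD1 list, together 22200 of the 52708 peaks in the 5 lists read from the series. A peak is a stretch of genome in which the authors found more sequenced tags after chromatin immunoprecipitation than in their reference. Peaks of the lists were called shared where they overlapped by at least 1 bp, and the other peaks are called SVIL-only or LSD1-only.

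LSD1 removes methyl groups from lysines of histone H3 and works in complexes that repress or activate genes. Neurons make a splice form, LSD1+8a, which holds a small extra exon, and the series design names SVIL as the cofactor of that form. SVIL is otherwise known as a large actin-binding protein of the cell cortex and of muscle that can also enter the nucleus. The comparison asks where in the genome this cofactor was found relative to LSD1.

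Cells of both groups were infected with a control shRNA, kept in 10 µM retinoic acid for 4 days and then in 50 ng/mL BDNF without serum for 3 days. By their labels they differed only in the antibody, which was directed at SVIL or at LSD1. The series holds 23 samples, 14 from immunoprecipitation and 9 of input chromatin, and 3 further lists were used for comparison: an LSD1+8a list of control cells at day 3, an LSD1 list of control cells at day 0 of BDNF and another LSD1 list of day 0 from cells with an shRNA against LSD1+8a. With 1 library in each group there was no replicate to compare, and no test between libraries was made. The intervals in parentheses are exact 95% intervals on peak counts or medians. They cover counting error only, and neighbouring peaks are not independent. The depth of the libraries is unknown, so tag levels were compared only between peaks of 1 library. Within pairs, tags of the libraries were related by rank only. Where tags of both are printed for 1 region, they do not measure relative signal. The SVIL sample from cells with an shRNA against SVIL and the inputs were not analysed here, so the specificity of the antibodies was not checked. Positions are given in hg19 without gene names, since gene coordinates of that build were not used.

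Most SVIL peaks lay inside LSD1 peaks, and few LSD1 peaks held one. Of the SVIL peaks, 853 overlapped an LSD1 peak, which is 58.7% of the list (56.2 to 61.3). They lay at 824 LSD1 peaks, 3.97% of that list (3.71 to 4.25). No SVIL peak touched more than 1 LSD1 peak. Of the 853 pairs, 844 (98.9%, 98.0 to 99.5) had the SVIL peak wholly within the LSD1 peak. In no pair was the SVIL peak the longer one. The SVIL peak covered a median of 23.8% of the LSD1 peak (22.8 to 24.4), from 0.854% to 83.0%. Shared peaks made up 61.3% of the bases and 61.7% of the tags of the SVIL list, and 5.34% of the bases and 7.77% of the tags of the LSD1 list.

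Few pairs depended on small changes of the limit of 1 bp, whereas requiring 50% of both peaks left 1.72% of SVIL peaks shared. The smallest overlaps were 9 bp on chromosome 3, where a SVIL peak (25614261 to 25614542) met the edge of an LSD1 peak, and 46 bp on chromosome 7 (128596353 to 128596711). The nearest SVIL-only peaks ended 52 bp from an LSD1 peak on chromosome 7 (20320005 to 20320151) and 98 bp from one on chromosome 2 (127667103 to 127667429). The next gaps were 115 bp on chromosome 14, 126 bp on chromosome 1 and 128 bp on chromosome 11. The peak on chromosome 14 (76438297 to 76438745) ranked 56 in the SVIL list, with 44 tags at a fold enrichment of 35.1, while the other 4 ranked from 1002 to 1402.

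The lists differed in peak length before any sharing was considered. SVIL peaks had a median length of 314 bp (306 to 320), from 76 to 2197 bp, and LSD1 peaks one of 1044 bp (1039 to 1050), from 283 to 6361 bp. In the SVIL list 631 peaks (43.5%, 40.9 to 46.1) were shorter than 300 bp, the lower end of the sonicated fragments, and in the LSD1 list 1 peak was. The settings behind each list are not known, so a narrower zone of SVIL signal and a difference in calling cannot be told apart.

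Shared peaks were longer than unshared ones in both lists, by little for SVIL and by more for LSD1. The median was 324 bp (316 to 333) for shared and 298 bp (289 to 305) for SVIL-only peaks. It was 1349 bp (1305 to 1408) for shared and 1035 bp (1029 to 1041) for LSD1-only peaks. In tags, shared SVIL peaks had a median of 20 (20 to 21) and SVIL-only peaks one of 19 (18 to 19). Shared LSD1 peaks had a median of 99 tags (94 to 104) and LSD1-only peaks one of 49 (48 to 49). Per kb of peak, LSD1 density was 66.5 tags per kb (64.5 to 68.9) in shared and 45.6 (45.3 to 45.8) in LSD1-only peaks. SVIL density was 63.1 (62.3 to 63.8) in shared and 64.9 (63.6 to 66.0) in SVIL-only peaks.

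**Figure D1:**
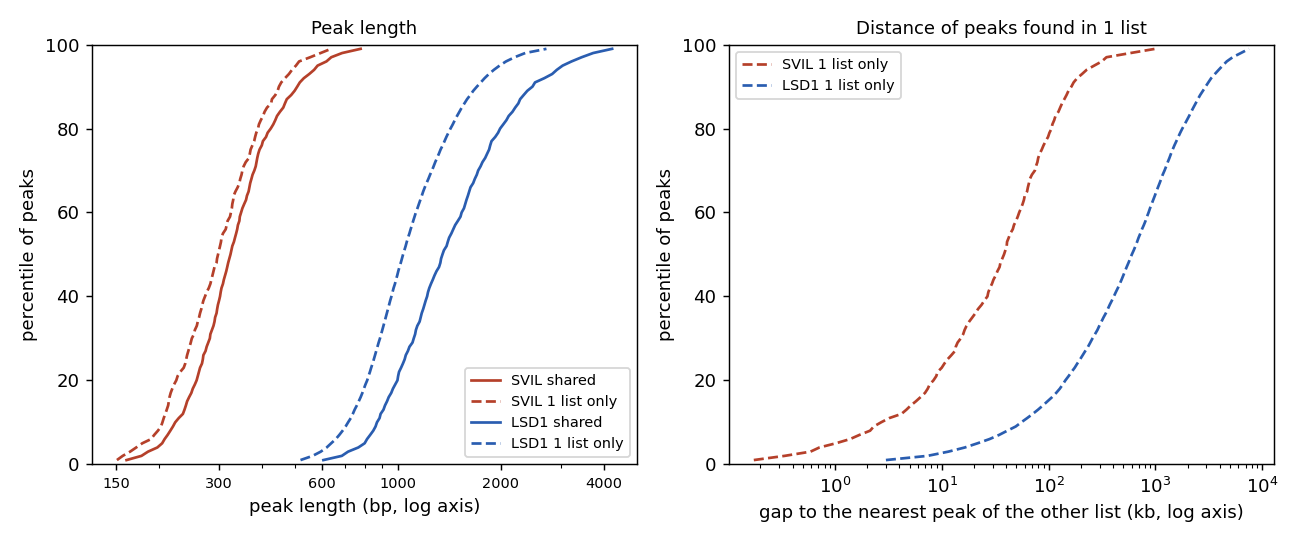
Cumulative percentiles of peak length in bp (left, log axis) and of the gap in kb from peaks of 1 list to the nearest peak of the other (right, log axis), for SVIL (red) and LSD1 (blue), shared (solid) and 1 list only (dashed). The SVIL curves lie close together around 300 bp, and the shared LSD1 curve lies to the right of the LSD1-only curve. The gaps are shorter for SVIL-only than for LSD1-only peaks, an order already set by the list sizes of 1452 SVIL and 20748 LSD1 peaks.

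How often a SVIL peak lay at LSD1 depended on its fold enrichment, the authors' ratio of signal over reference, and in the opposite sense on its length. In the decile of SVIL peaks with the lowest folds (5.38 to 12.1), 80.1% were shared (72.7 to 86.3). In the decile with the highest folds (29.8 to 114.9), 35.6% were (27.9 to 44.0). By length the share rose from 41.1% (33.03 to 49.5) of the shortest decile to 72.6% (64.6 to 79.7) of the longest. By tags it was 39.0% (31.1 to 47.5) in the lowest decile, 69.7% (61.5 to 77.0) in the eighth and 51.4% (43.0 to 59.7) in the highest. Fold and length were then combined, with the list cut into 3 equal groups by length and each of these into 3 by fold. Among the longest peaks 80.1% (73.1 to 86.0) were shared at the lowest folds and 46.9% (39.0 to 54.9) at the highest. Long SVIL peaks of low fold were thus the kind most often found at LSD1. Among the shortest peaks the shares at the lowest and highest folds were 53.4% (45.4 to 61.3) and 43.8% (36.1 to 51.8). The share fell with fold in each length group, with overlapping intervals among the shortest peaks. Chromosome parts, which are compared below and differ in fold, were not separated here.

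**Figure D2:**
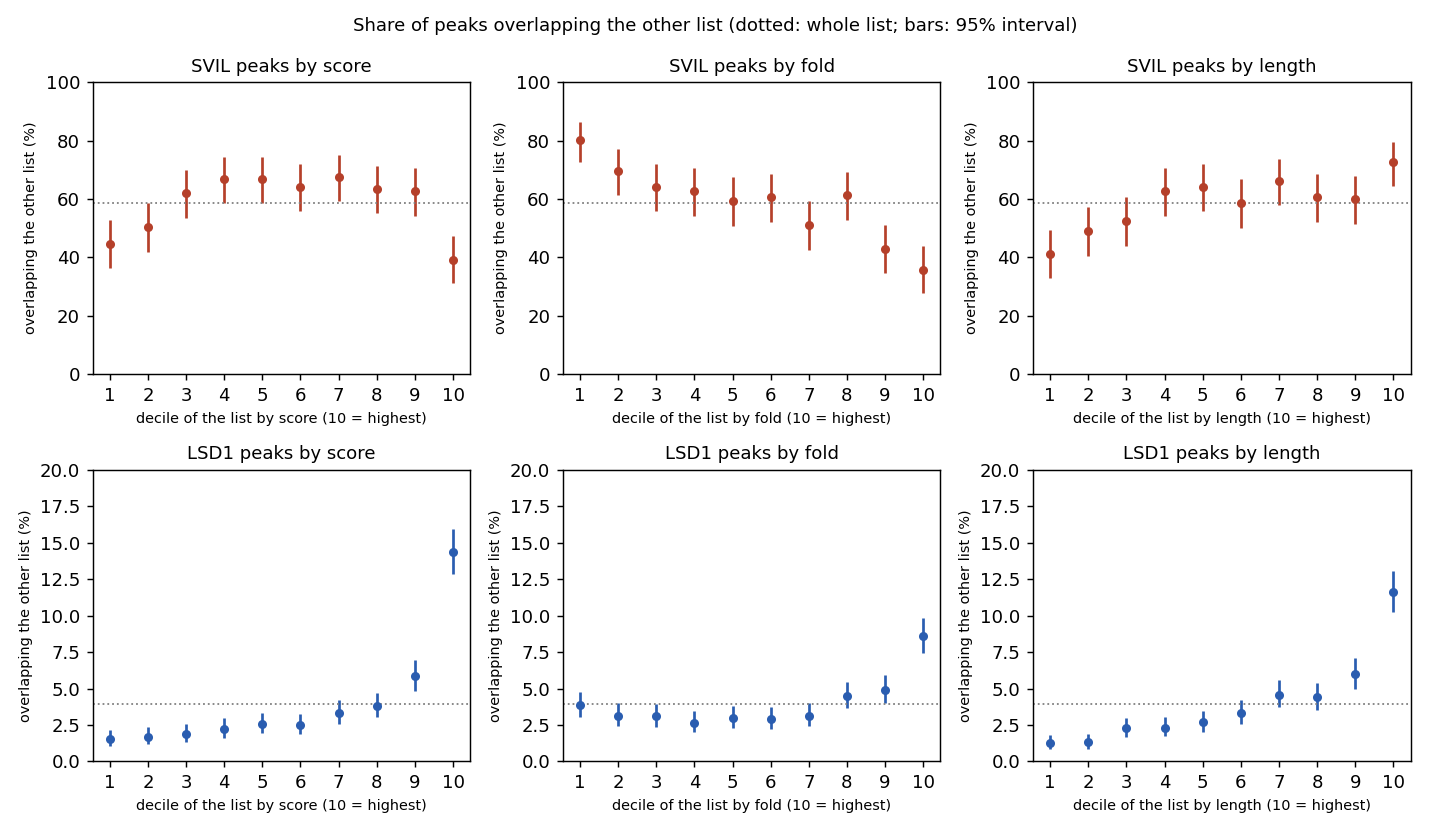
Share of SVIL peaks (top) and LSD1 peaks (bottom) that overlap the other list, in percent, by decile of the list in score, fold enrichment and length; points are shares, bars exact 95% intervals and dotted lines the whole lists, 58.7% and 3.97%. SVIL shares fall with fold from 80.1% to 35.6%, and LSD1 shares rise with score and length.

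An LSD1 peak held a SVIL peak more often the more tags it had. The share was 0.578% (0.299 to 1.01) in the lowest decile by tags and 17.1% (15.5 to 18.7) in the highest. By length it went from 1.25% (0.820 to 1.83) to 11.6% (10.3 to 13.1). Tags and length go together in these lists, so the LSD1 peaks were grouped by both. Among the longest LSD1 peaks the share was 1.95% (1.43 to 2.60), 3.90% (3.15 to 4.78) and 15.2% (13.8 to 16.8) from low to high tags, at median lengths of 1372, 1534 and 1844.5 bp. Among the shortest it was 0.477% (0.238 to 0.852), 1.21% (0.809 to 1.75) and 3.30% (2.61 to 4.11). At each length the peaks with the most tags were shared most often, although length still varied somewhat within the groups.

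LSD1 peaks with LSD1 neighbours were shared more often than isolated ones. Of LSD1 peaks with no other LSD1 summit within 25 kb, 3.07% (2.74 to 3.42) held a SVIL peak, and the share was 4.33% (3.92 to 4.78) with 1 or 2 such neighbours, 7.46% (6.20 to 8.89) with 3 to 5 and 14.5% (7.17 to 25.04) with 6 or more. Median tags rose along the same groups, from 46 to 52, 61 and 71, and their part in the result was not tested.

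Within the pairs, the 2 summits, the points of highest signal, lay close to each other. The median distance was 82 bp (75 to 91), with quartiles of 36 and 178 bp. Summits were at most 50 bp apart in 33.8% of pairs (30.6 to 37.0), at most 100 bp in 57.6% (54.2 to 60.9) and at most 300 bp in 85.6% (83.0 to 87.9). In 20 pairs they were more than 1000 bp apart. The SVIL peak contained the LSD1 summit in 76.3% of pairs (73.3 to 79.1), and the LSD1 peak contained the SVIL summit in 99.5% (98.8 to 99.9). The offset had no preferred side: the SVIL summit lay at the higher coordinate in 416 of the 850 pairs with different summits (48.9%, 45.5 to 52.4).

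SVIL summits kept to the middle of the LSD1 peak, a little less closely than the LSD1 summits themselves. With each LSD1 peak divided into 5 equal segments, the central segment held 41.6% of SVIL summits (38.3 to 45.0), the segments beside it 26.96% and 26.3%, and the outer segments 2.11% and 2.58%. The LSD1 summit of the same pairs was in the central segment in 51.9% (48.5 to 55.3), against 53.3% (52.6 to 53.9) for all LSD1 peaks. SVIL summits were central less often in longer LSD1 peaks. The central share of the LSD1 summits was not computed by length. In the quartile group of pairs with the shortest LSD1 peaks the median distance was 71 bp and 48.1% of SVIL summits (41.3 to 55.0) were central. In the groups between, the distances were 67 and 94 bp and the central shares 47.9% and 39.0%. In the group with the longest, from 1870 to 5965 bp, the values were 106 bp and 31.5% (25.3 to 38.2).

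**Figure D3:**
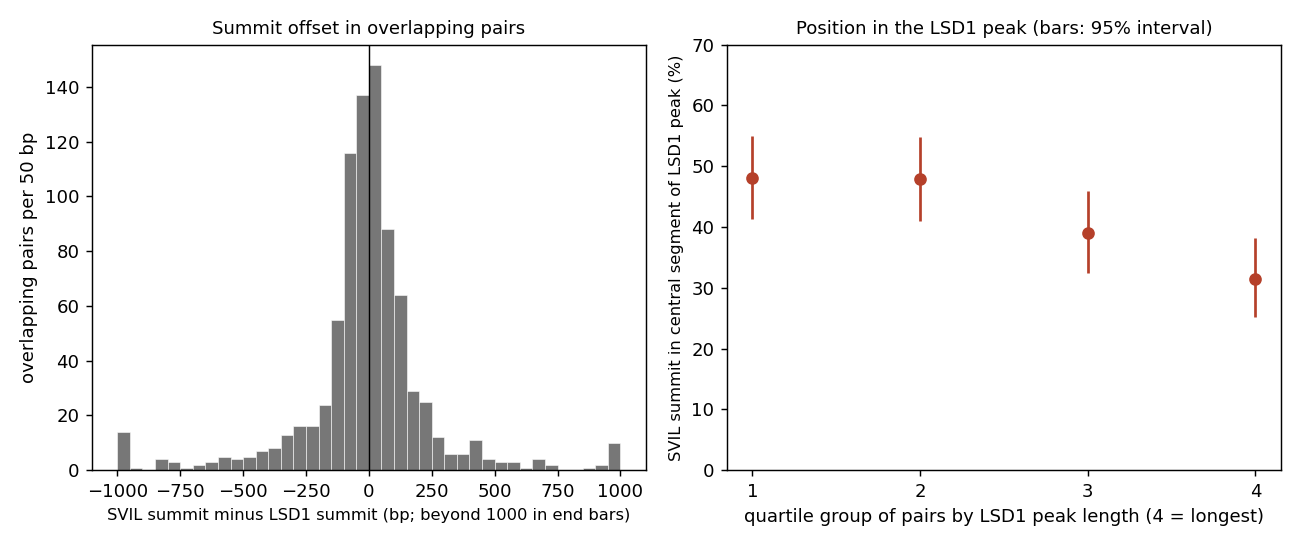
Left, number of overlapping pairs per 50 bp of offset between the SVIL and the LSD1 summit in bp, with offsets beyond 1000 bp in the end bars; right, share of SVIL summits in the central of 5 equal segments of the LSD1 peak, in percent, by quartile group of pairs in LSD1 peak length, with exact 95% intervals. Offsets pile up on both sides of 0, and the central share goes from 48.1% to 31.5% as LSD1 peaks get longer.

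Signal in the lists went together only loosely within pairs. Over the 853 pairs, which share a locus and the cell line, Spearman's rho was 0.39 for tags, 0.31 for length, 0.18 for score and 0.15 for fold. Median SVIL tags were 17, 19, 21 and 26 in the quartile groups of pairs from the fewest to the most LSD1 tags. A well ranked SVIL peak could therefore sit on a weak LSD1 peak, as the next regions show.

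By rank, the strongest SVIL peak was on chromosome 17 (76249964 to 76250726), with 214 tags in 763 bp at a fold of 94.4. Its LSD1 peak (76250072 to 76250957) ranked 256 with 116 tags, and the summits were 464 bp apart. The region on chromosome 11 (62608795 to 62609414) was second for SVIL with 124 tags at a fold of 96.7 and 55th for LSD1 with 192 tags at 60.6, with summits 67 bp apart. The region that stood highest in both lists was on chromosome 21 (9825444 to 9827640), rank 3 for SVIL and rank 1 for LSD1. It carried 1093 SVIL and 3197 LSD1 tags at folds of only 6.75 and 11.8, and its summits were 1306 bp apart. The region on chromosome 1 (156186224 to 156186665) likewise had 172 SVIL tags at a fold of 5.82 and 590 LSD1 tags at 24.0. Both lie in all 5 lists, and the inputs were not looked at there.

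The other regions that ranked well in both lists lay on chromosomes 2, 3, 4, 6, 7 and 8, with SVIL folds from 7.45 to 35.5 and LSD1 folds from 16.5 to 59.6. The closest pair of summits among them, 20 bp, was on chromosome 6 (26104095 to 26104555), with 34 SVIL tags at a fold of 35.5 and 151 LSD1 tags at 49.5. A second region of chromosome 6 (23611984 to 23612481) had 35 SVIL and 147 LSD1 tags and summits 74 bp apart. On chromosome 3 (64598513 to 64598980) 34 SVIL tags met 245 LSD1 tags, with summits 51 bp apart. On chromosome 8 (126346330 to 126346865) 42 SVIL tags met 207 LSD1 tags, 55 bp apart, and on chromosome 2 (29873546 to 29874268) 50 met 358, 237 bp apart.

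Some SVIL peaks at the head of their list lay at LSD1 peaks near the foot of theirs, and these were picked after their values were seen. The seventh SVIL peak, on chromosome 17 (75678000 to 75678617), had 87 tags at a fold of 54.6, while its LSD1 peak had 40 tags and ranked 14552. On chromosome 7 (3113054 to 3113858) the SVIL peak of rank 16 lay at an LSD1 peak of rank 20377. On chromosome 11 (86808626 to 86809399) ranks of 17 and 18447 met, and the summits were 30 bp apart. Conversely, the third LSD1 peak, on chromosome 20 (26188532 to 26190791, 780 tags), held SVIL peaks of ranks 462 and 1277. These SVIL peaks had 127 and 82 tags at folds of only 6.21 and 8.22. They overlapped peaks of all the other lists, and the inputs were not looked at there either. Over the 57 shared SVIL peaks in the highest decile by score, the LSD1 partner had a median rank of 2926, against 3851.5 over the other 796.

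Several SVIL peaks could lie in 1 LSD1 peak. Of the 824 LSD1 peaks, 797 held 1 SVIL peak, 25 held 2 and 2 held 3. The LSD1 peak on chromosome 4 (174439975 to 174445339), 5365 bp long with 410 tags, held SVIL peaks of 344, 631 and 398 bp, whose summits lay 2182, 640 and 399 bp from the LSD1 summit. That on chromosome 11 (71947042 to 71950046), 3005 bp long with 130 tags, held SVIL peaks of 284, 555 and 394 bp at 1475, 508 and 134 bp. The first is the pair with the widest summit distance of all. The next widest were 1873 bp in an LSD1 peak on chromosome 15 (74583062 to 74586768), 1674 bp on chromosome 9 (136527078 to 136527313) and 1631 bp on chromosome 8 (89339252 to 89339525). The last of the 5 widest, 1514 bp, belongs to another SVIL peak in the same LSD1 peak of chromosome 15. The LSD1 peaks of these 5 pairs were 3174 to 5365 bp long.

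SVIL-only peaks were mostly far from LSD1 by the measure of a peak length. The median gap to the nearest LSD1 peak was 38252 bp (33172 to 42403), with quartiles of 11305.5 and 86351 bp. Of the 599, 29 lay within 1 kb of an LSD1 peak, 237 (39.6%, 35.6 to 43.6) between 25 and 100 kb and 6 beyond 1 Mb. Neighbouring LSD1 peaks were themselves a median of 55149 bp apart (53693 to 56774). LSD1-only peaks lay a median of 602072 bp (587186 to 621870) from the nearest SVIL peak, and neighbouring SVIL peaks 801919 bp apart (705917 to 937039).

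Shared SVIL peaks stood in denser LSD1 neighbourhoods, also with the overlapping peak left out of the count. Besides that partner, 62.5% of shared SVIL peaks (59.1 to 65.7) had at least 1 LSD1 summit within 25 kb. Of SVIL-only peaks, 38.6% (34.6 to 42.6) had at least 1 within 25 kb, and 21.7% (18.5 to 25.2) had none within 100 kb. Among all 20748 LSD1 peaks, 10277 had no other LSD1 summit within 25 kb. How much of the difference comes from standing at an LSD1 peak at all was not tested. The most remote SVIL-only peak was on chromosome X (53316659 to 53316983), 1641 kb from LSD1 at day 3, although LSD1 peaks of both day 0 lists overlapped it. Others were on chromosome 12 (61624850 to 61625108), at 1453 kb, chromosome 5 (29882869 to 29883235), at 1421 kb, chromosome 7 (144532304 to 144532615), at 1366 kb, and chromosome 8 (63858775 to 63859023), at 1140.1 kb. The chromosome 7 peak overlapped the control LSD1 list of day 0, and those on chromosomes 12, 5 and 8 overlapped no other list. All 5 of these remote peaks had 14 to 26 tags, against quartiles of 16 and 27 over the whole list.

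Shared and SVIL-only peaks also differed in the other lists. Of shared SVIL peaks, 73.7% (70.6 to 76.7) overlapped an LSD1 peak of at least 1 of the day 0 lists, and of SVIL-only peaks 26.4% (22.9 to 30.1). LSD1+8a peaks of day 3 overlapped 27.4% (24.5 to 30.6) of shared and 6.01% (4.24 to 8.22) of SVIL-only peaks. None of the 3 lists held 21.6% (18.9 to 24.5) of shared and 72.5% (68.7 to 76.0) of SVIL-only peaks. LSD1 peaks had the same order: 75.1% (72.0 to 78.0) of shared and 43.4% (42.7 to 44.1) of LSD1-only peaks were in a day 0 list. The 3 lists come from antibodies to forms of the same protein, and the LSD1 lists from the same antibody, so they do not give a second, independent view of LSD1.

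In the highest score decile, SVIL-only peaks were almost never at LSD1 of day 0. Among these 89 peaks 4 were (4.49%, 1.24 to 11.1), while in the other 9 deciles the share ran from 23.5% to 41.7%. Of the 57 shared SVIL peaks in the same decile, 51 were (89.5%, 78.5 to 96.0). Of the 89, 85 (95.5%, 88.9 to 98.8) lay in none of the 3 other lists, against 349 of the 510 SVIL-only peaks of lower score (68.4%, 64.2 to 72.4). These 89 peaks had a median of 420 bp, 42 tags and a fold of 36.3 (quartiles 27.3 and 44.1). The shared peaks of that decile were longer and of lower fold, at 514 bp, 43 tags and 27.3 (20.7 and 38.3). The SVIL-only peaks of lower score were shorter, at 284 bp, 17 tags and a fold of 18.7. Of the first 100 SVIL peaks by score, 67 were SVIL-only, and 65 of these were in no other list. Over the whole list, 599 of 1452 were SVIL-only, and 434 of these were in no other list. The first 10 peaks by score did not show this excess, with 4 SVIL-only.

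**Figure D4:**
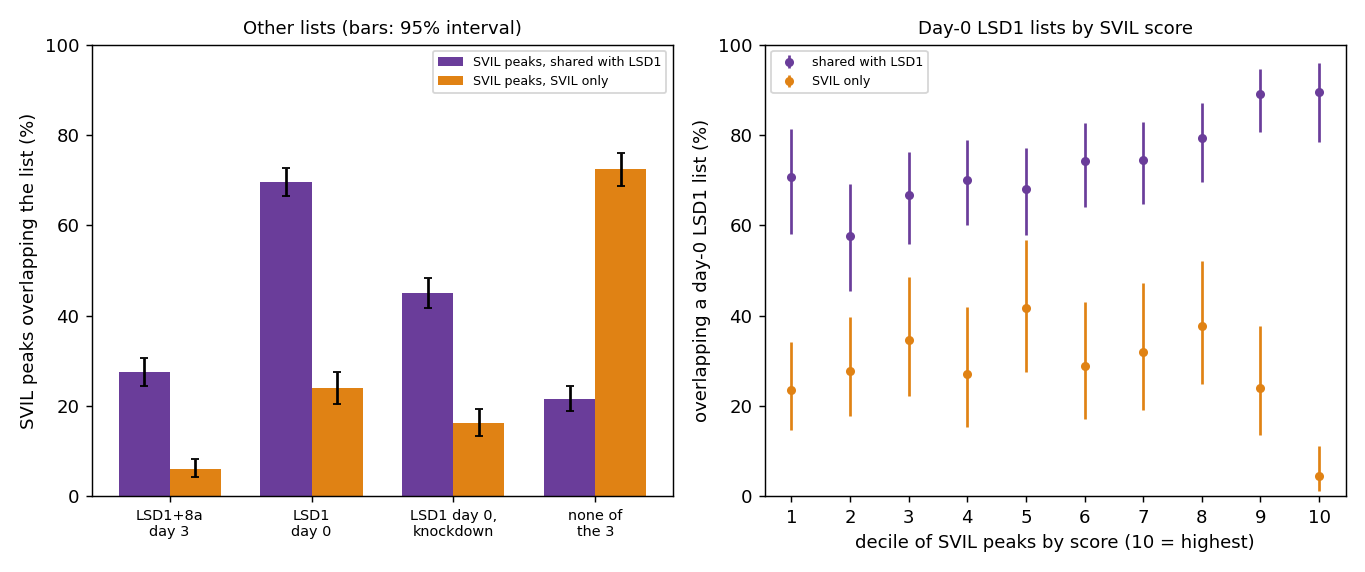
Left, share of SVIL peaks, in percent with exact 95% intervals, that overlap the LSD1+8a list of day 3, the LSD1 lists of day 0 or none of the 3, for peaks shared with LSD1 at day 3 (purple) and SVIL-only peaks (orange); right, share overlapping a day 0 LSD1 list by decile of SVIL score. In the highest decile the SVIL-only share is 4.49% and the shared one 89.5%.

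The SVIL-only peak with the best rank, 4, was on chromosome 6 (10778519 to 10778930), with 76 tags in 412 bp at a fold of 72.6, 108 kb from the nearest LSD1 peak. Next was chromosome 17 (80908574 to 80909276), with 98 tags at 36.1 and 99.9 kb away. The peak on chromosome 12 (27788359 to 27788852) had 58 tags at 56.7 and was 117 kb away. On chromosome 1 (212070796 to 212071279) 68 tags lay 64.5 kb away, on chromosome 9 (128887201 to 128887779) 68 tags 65.6 kb away, on chromosome 20 (51054331 to 51054833) 57 tags 42.6 kb away, on chromosome 14 (79886615 to 79887078) 53 tags 67.0 kb away and on chromosome 18 (75017234 to 75017582) 47 tags 177 kb away. These 8 were in none of the other lists. The remaining 2 of the first 10 differed in this. The peak on chromosome 16 (67515459 to 67516091, 78 tags) overlapped both LSD1 lists of day 0 and lay 10.7 kb from LSD1 at day 3, and that on chromosome 11 (34126686 to 34127312, 59 tags) overlapped all 3 other lists.

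The strongest LSD1 peaks without SVIL were mostly present in the other LSD1 lists, and so were the strongest shared LSD1 peaks. Over the whole LSD1 list, 43.4% of LSD1-only and 75.1% of shared peaks were in a day 0 list. The first LSD1-only peak, on chromosome 19 (42746396 to 42747899), ranked 2 with 419 tags at a fold of 89.5 and was 1376 kb from the nearest SVIL peak. It was followed by chromosome 16 (30932772 to 30934917), with 407 tags at 52.6, and by chromosome 19 (47353742 to 47354780), with 242 tags at 161.9. Of the 10 highest LSD1-only peaks, 8 were in all 3 other lists, 1 on chromosome 1 (49119822 to 49121196) was in both LSD1 lists of day 0 and 1 on chromosome 15 (40615305 to 40616149) in the knockdown list of day 0. Their distances to SVIL ran from 220.4 kb to 9396 kb. Even in the highest decile of LSD1 peaks by tags, 17.1% held a SVIL peak and the others did not.

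SVIL peaks also came in short runs, some at LSD1 and some away from it. Runs of at least 3 SVIL peaks with gaps of at most 25 kb numbered 24 and held 87 peaks, of which 62 were shared (71.3%, 60.6 to 80.5), beside 58.7% of the whole list. The following were named after their values were seen. On chromosome 10 (29756636 to 29784004) 6 SVIL peaks stood with 5 LSD1 peaks, each of which held 1. The SVIL peak at 29782131 to 29782423 had 62 tags and the highest fold of the list, 114.9, and the next, at 29783816 to 29784004, had 31 tags at 79.2. They were 293 and 189 bp long. On chromosome 8 (23004961 to 23012338) 6 SVIL peaks of 14 to 29 tags lay in 4 LSD1 peaks, all shared. In contrast, on chromosome 18 (52885522 to 52902262) 5 SVIL peaks of 18 to 44 tags had no LSD1 peak among them. The same held for 3 on chromosome 5 (50682018 to 50695023), and on chromosome 1 (23399793 to 23409857) 1 of 5 was shared, at an LSD1 peak of 28 tags.

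LSD1 peaks in runs held a SVIL peak more often than the rest of the list. Runs of at least 10 LSD1 peaks with gaps of at most 25 kb numbered 19 and held 210 LSD1 peaks, of which 27 were shared (12.9%, 8.65 to 18.2), against 3.88% (3.62 to 4.15) of LSD1 peaks elsewhere. Of the 30 SVIL peaks inside them, 28 were shared (93.3%, 77.9 to 99.2), against 825 of the 1422 outside (58.02%, 55.4 to 60.6). The run with the most LSD1 peaks, 15, was on chromosome 6 (26156062 to 26286194) and held 5 SVIL peaks, all 5 shared. The longest in bases, 149 kb on chromosome 12 (76099458 to 76248077), had 10 LSD1 peaks and no SVIL peak. On chromosome 10 (72961438 to 73039596) 13 LSD1 peaks stood with no SVIL peak, and 6 of the 19 runs had none. Median LSD1 tags rose with the number of LSD1 neighbours, as given above, and their part in these shares was not tested.

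The balance of the lists varied along the genome. There were 69.98 SVIL peaks per 1000 LSD1 peaks in all (66.3 to 73.8, exact). Each chromosome was split at its widest stretch without peaks, into the part of lower and the part of higher coordinates, and the 40 parts with at least 100 LSD1 peaks were kept. The ratio was highest on the higher part of chromosome 7, 145 (119 to 175), the higher part of chromosome 1, 134 (112 to 159), the higher part of chromosome 17, 127 (99.8 to 160), the lower part of chromosome 2, 122 (98.1 to 150), and the lower part of chromosome 7, 115 (85.1 to 152). The other 35 parts had a median of 50.1 and ran from 9.01 to 103. The lower part of chromosome 1 had 73.4 (57.3 to 92.7) and the higher part of chromosome 2 had 45.5 (33.3 to 60.8). On chromosome 2 the change came near 50 Mb: the first 50 Mb had 148 (117 to 185) and the rest 46.9 (35.6 to 60.8), and each of the first 5 windows of 10 Mb, at 124 to 173, lay above all 20 that followed, at 0 to 74.1.

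Pooled after their values were seen, those 5 parts held 505 SVIL and 3876 LSD1 peaks, a ratio of 130 against 56.1 elsewhere. In them 8.18% of LSD1 peaks were shared, against 3.00%. Both values are descriptions, because parts picked for many SVIL peaks per LSD1 peak also have more LSD1 peaks that hold one. Of the SVIL peaks there, 65.5% were shared, against 55.1% elsewhere. Tags per peak were higher there in both libraries. The median was 65 for LSD1 against 47 elsewhere, and 23 for SVIL against 18, while median folds were lower, 15.1 against 17.7 and 15.4 against 20.9. SH-SY5Y cells are known to carry extra copies of chromosome 7, of the long arms of chromosomes 1 and 17 and of part of the short arm of chromosome 2. The number of copies was not measured in the files used here, and its part in the ratios was not tested.

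**Figure D5:**
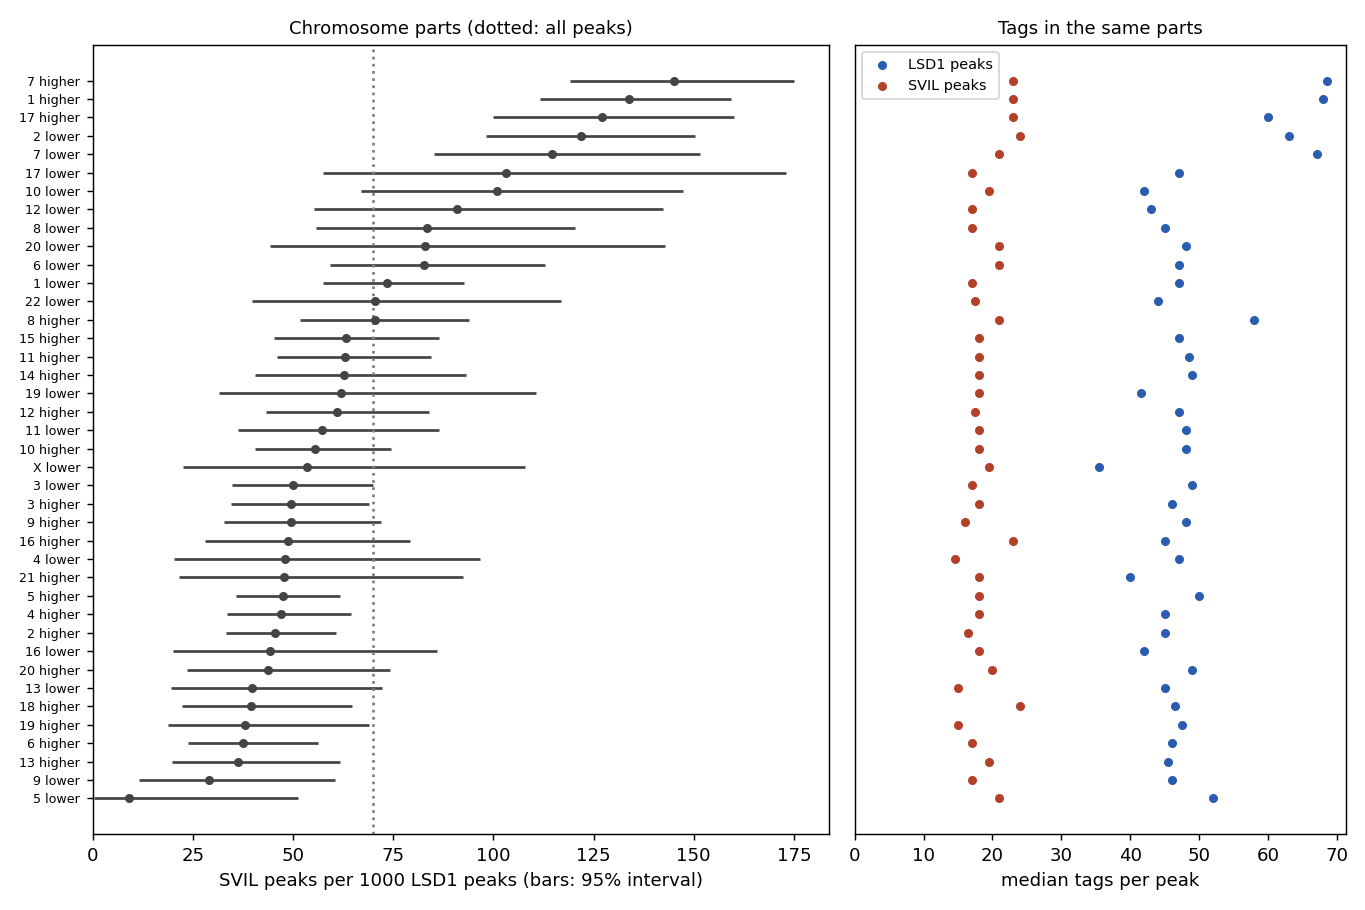
Left, SVIL peaks per 1000 LSD1 peaks in 40 chromosome parts, named by chromosome and by lower or higher coordinates, with exact 95% intervals and all peaks (69.98) as a dotted line; right, median tags per peak in the same parts for LSD1 (blue) and SVIL (red). The 5 parts at the top, at 115 to 145, also have the highest LSD1 medians, 60 to 68.5 tags.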

How the data were processed

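ChIP-seq peak lists of 5 libraries were read, 1 per library and called by the authors per sample. The submitters' processing notes name CASAVA, Bowtie 1.0.0, hg19 and mm9; the lists hold human chromosomes and were read as hg19. The caller, its settings and each list's input were not stated in the labels or headers. In the deposited lists, tags per peak are whole-number counts that were not normalized, the fold enrichment is the authors' own ratio, and the unnamed column was treated as a score without a unit. Scores rank peaks within a list only, except where the lowest SVIL score was applied to both lists as an alternative. Peak start, end, length and summit offset were deposited as other values, in bp.

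Samples were grouped by their titles, with 1 library per group. Overlap, distance and summit functions were written in Python 3.11.15 with pandas 2.3.3, numpy 2.4.6 and scipy 1.17.1 and tested on simulated data. Intervals for shares are Clopper-Pearson, for ratios of peak counts exact binomial and for medians from order statistics, at 95%. Deciles, quartiles and groups were cut by rank within a list. No peak was left out, and no column of per-sample values lacked a sample. Named regions are the 10 shared regions with the best worse rank, the 10 best SVIL-only and LSD1-only peaks, the SVIL-only peaks 5 nearest to and 5 farthest from LSD1, LSD1 peaks with several SVIL peaks and the 5 pairs with the widest summit distance, of which the text gives most; exceptions are stated there. The regions and lists were chosen with earlier results of these data known. Gene lists and promoter windows were planned and not run, since gene coordinates in hg19 were not used here. Alternatives were 50% reciprocal overlap, edges within 1 kb, the SVIL summit inside the LSD1 peak, the upper 50% by score, a common score minimum, autosomes and X only, merging of peaks within 1 kb and, added after the data were seen, leaving out chromosomes 1, 2, 7 and 17.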

Additional observations from a re-analysis of the deposited data

How the results depend on the processing

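Of 68 values recomputed under 8 alternatives, 44 stayed within the interval of the reported value. Among them were all those with the SVIL summit inside the LSD1 peak and with autosomes and X only. These 2 alternatives could change little. In 849 of the 853 pairs the SVIL summit was inside already, and only 3 LSD1 peaks lay on a chromosome without SVIL peaks. Requiring an overlap of 50% of both peaks left few pairs, since SVIL peaks cover less of the LSD1 peak: the shared share was 1.72% of SVIL and 0.120% of LSD1 peaks, shared SVIL peaks were 193 bp and 15 tags above the others in the median, shared LSD1 peaks differed by 6 tags and by -177 bp, which reverses the difference in LSD1 length, summits were 113 bp apart and the median distance became 0 bp. With edges within 1 kb, 4.36% of LSD1 peaks were shared, summits were 95 bp apart and 37.4% of SVIL summits were central. With only the better scoring 50% of either list, the shares were 47.0% and 3.23% and the SVIL-only distance 71310 bp, and with the lowest SVIL score as minimum they were 50.8%, 5.05% and 54094 bp; fewer LSD1 peaks enter both. Merging peaks within 1 kb raised the LSD1 length difference from 314 to 410 bp. Without chromosomes 1, 2, 7 and 17 the shares were 55.3% and 2.96%, the LSD1 differences 251 bp and 39 tags, the SVIL tag difference 0 and the SVIL-only distance 45282 bp; the cause was not tested. No paired analysis was possible because each group is 1 library, and no replicate could be left out. Promoter windows were not run. Unknown depth limits every share, since a deeper library could list more peaks.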
